A study of Rattus norvegicus with 18 samples.

Results

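The genes described here are 9 that mark homeostatic microglia, chosen by name: P2ry12, P2ry13, Cx3cr1, Tmem119, Gpr34, Olfml3, Mertk, Fcrl2 and Pld4. All 9 are listed among the 17327 genes of the microglia tables and the 17307 genes of the astrocyte tables. Their read counts were compared across 18 RNA sequencing libraries of primary glial cultures from wild-type Sprague-Dawley rats. The study asked how defined fibrils of the amyloid peptides Aβ42 and Aβ40 alter the transcriptomes of these cells. Cortices of pups at postnatal day 2 gave mixed glial cultures. Microglia were shaken off, and astrocytes were recovered from the layer left on the flask after a longer shake. Both were moved to serum-free medium and left untreated, or given Aβ42 or Aβ40 fibrils at 25 µM, for 24 h. Each of the 6 groups had 3 libraries, here called replicates 1 to 3. Whether the replicates came from separate cultures is not given in the sources used here, so the p-values measure the spread between these libraries, which may be technical.

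Microglia are the resident macrophages of the brain. In the undisturbed brain they carry a set of surface receptors with which they sense nucleotides, chemokines and lipids around them, and this set is commonly used to tell homeostatic microglia from activated ones. P2ry12 and P2ry13 are G protein-coupled receptors for ADP, Cx3cr1 is the receptor for the chemokine fractalkine, and Gpr34 is a receptor for lysophosphatidylserine. Mertk is a receptor tyrosine kinase used in the clearance of dying cells, Fcrl2 belongs to the Fc receptor-like family, and Pld4 is an exonuclease of the endolysosome. Tmem119 is a membrane protein used as a microglia marker, and Olfml3 is a secreted protein of the olfactomedin family.

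In the reference gene table, P2ry12 and P2ry13 lie within the span of Med12l and Gpr34 lies within the span of Cask. P2ry13 and Gpr34 are on the strand opposite to these hosts. The libraries were made with a stranded kit, but the strand setting of the counting is not given, so reads of these genes and their hosts may not be fully separated. A promoter sequence from RefSeq (build GRCr8) was at hand for 6 of the 9 genes, and none for P2ry12, Tmem119 and Fcrl2. The 250 bases before the start are printed for 3 genes that were lower with both fibrils in both cultures (Cx3cr1, Gpr34, Pld4) and for Olfml3, which was higher. They lie at chr8:128677067-128677316 (minus strand), chrX:11785837-11786086 (minus strand), chr6:137639698-137639947 (plus strand) and chr2:193935495-193935744 (minus strand). Capitals mark GGAA, or TTCC where it is on the other strand, the core bound by ETS factors such as Spi1 (PU.1), the macrophage regulator.
Cx3cr1: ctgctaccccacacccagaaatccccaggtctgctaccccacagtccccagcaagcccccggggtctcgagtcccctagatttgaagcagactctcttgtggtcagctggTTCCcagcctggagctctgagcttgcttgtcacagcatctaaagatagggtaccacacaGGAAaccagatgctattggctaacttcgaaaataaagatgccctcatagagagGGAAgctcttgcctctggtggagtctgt
Gpr34: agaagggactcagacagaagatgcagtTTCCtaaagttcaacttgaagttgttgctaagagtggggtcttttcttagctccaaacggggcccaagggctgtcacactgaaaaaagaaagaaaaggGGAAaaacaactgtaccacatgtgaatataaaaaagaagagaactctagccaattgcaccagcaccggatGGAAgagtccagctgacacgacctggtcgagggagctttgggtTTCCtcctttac
Pld4: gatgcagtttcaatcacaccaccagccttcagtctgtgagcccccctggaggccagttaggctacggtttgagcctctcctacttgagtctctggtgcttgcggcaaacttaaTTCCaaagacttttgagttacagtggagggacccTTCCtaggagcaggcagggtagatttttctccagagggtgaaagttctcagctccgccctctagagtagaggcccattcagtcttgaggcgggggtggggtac
Olfml3: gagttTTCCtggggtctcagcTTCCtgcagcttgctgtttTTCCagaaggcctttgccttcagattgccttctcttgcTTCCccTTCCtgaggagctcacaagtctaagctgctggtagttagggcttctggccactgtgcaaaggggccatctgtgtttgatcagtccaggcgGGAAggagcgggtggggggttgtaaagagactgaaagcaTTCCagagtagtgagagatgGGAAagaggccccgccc
The core occurred 3 times before Cx3cr1, 4 times before Gpr34, 2 times before Pld4 and 8 times before Olfml3. The windows of Mertk and P2ry13, genes that were also lower with both fibrils in microglia, are not printed. They held the core 3 and 0 times. It was found on either strand in 5 of the 6 windows and in 93.2% of the 33469 windows of that length in the reference. The longer form GGAAGT, which contains the core, was found in 0 of the 6 windows on either strand and in 19.2% of all windows. These counts describe letters in these windows only.

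The libraries held 2271834 to 22274367 counts on genes in microglia and 3674043 to 19013919 in astrocytes. Levels are given as CPM, in which counts are divided by each library's TMM-scaled total. A floor of 3 counts stood at 0.13 to 1.38 CPM in microglia libraries and at 0.16 to 0.835 CPM in astrocyte libraries. Intervals on counts and this floor cover counting error only. The smallest libraries were Aβ40 replicate 3 and Aβ42 replicate 1 of the microglia. The 8 astrocyte markers summed to 195 to 219 CPM in control microglia and to 8520 to 10200 CPM in control astrocytes, and the 15 pan-microglia markers to 13400 to 15500 and 745 to 847 CPM. The 8 oligodendrocyte lineage markers summed to 1960 to 2170 CPM in control microglia and 1730 to 2570 CPM in control astrocytes. In whole cultures, fewer microglia and less RNA per microglial cell cannot be told apart. The exact permutation test of 3 libraries against 3 cannot go below p = 0.1, and the adjusted p-values borrow their error from edgeR's variance estimate over the whole table.

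In microglia, 7 of the 9 genes were lower with Aβ42 fibrils and 8 of 9 were lower with Aβ40 fibrils (edgeR's quasi-likelihood test, called at an adjusted p-value under 0.05). Olfml3 was higher with both fibrils. The median log2 fold change of the 9 genes was -5.79 with Aβ42 and -5.67 with Aβ40 fibrils, and that of all 10837 genes tested was 0.01 in both. Of all genes tested, 26.6% were lower and 27.1% higher with Aβ42 fibrils, and 21.4% were lower and 19.6% higher with Aβ40 fibrils. Both comparisons share the 3 control libraries.

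Markers of other cells also moved in the treated microglia cultures. The 5 fibroblast markers summed to 55.4 to 67.8 CPM in control microglia, 134 to 162 CPM with Aβ42 fibrils and 119 to 125 CPM with Aβ40 fibrils, with none at 0 in any group. Of 4 tested, 3 were higher with Aβ42 fibrils, and 2 were higher and 1 lower with Aβ40 fibrils. Dcn, the matrix proteoglycan decorin, was at 0.427 ± 0.413 CPM (SD, n = 3) in control, 71.1 ± 12 CPM in Aβ42 and 64.6 ± 3.82 CPM in Aβ40 microglia. Most of the rise in the sum lay in this gene. In the same groups Col1a1 averaged 44.9, 63.5 and 47 CPM, and Lum 1.31, 7.05 and 6.47 CPM. Col3a1 averaged 16, 8.92 and 3.36 CPM, and Col1a2 was under 1 CPM in each. The oligodendrocyte lineage markers summed to 2180 to 2830 CPM with Aβ42 and 2210 to 2670 CPM with Aβ40 fibrils, and the astrocyte markers to 153 to 185 and 202 to 209 CPM. The 4 neuron markers summed to 23.8 to 30.3, 20 to 42.4 and 31.8 to 69.4 CPM in control, Aβ42 and Aβ40 microglia, and the 3 endothelial markers to 3.67 to 8.44 CPM over the 9 libraries, with Cldn5 at 0. The part of these cells in the falls of the homeostatic genes was not tested.

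**Figure D1:**
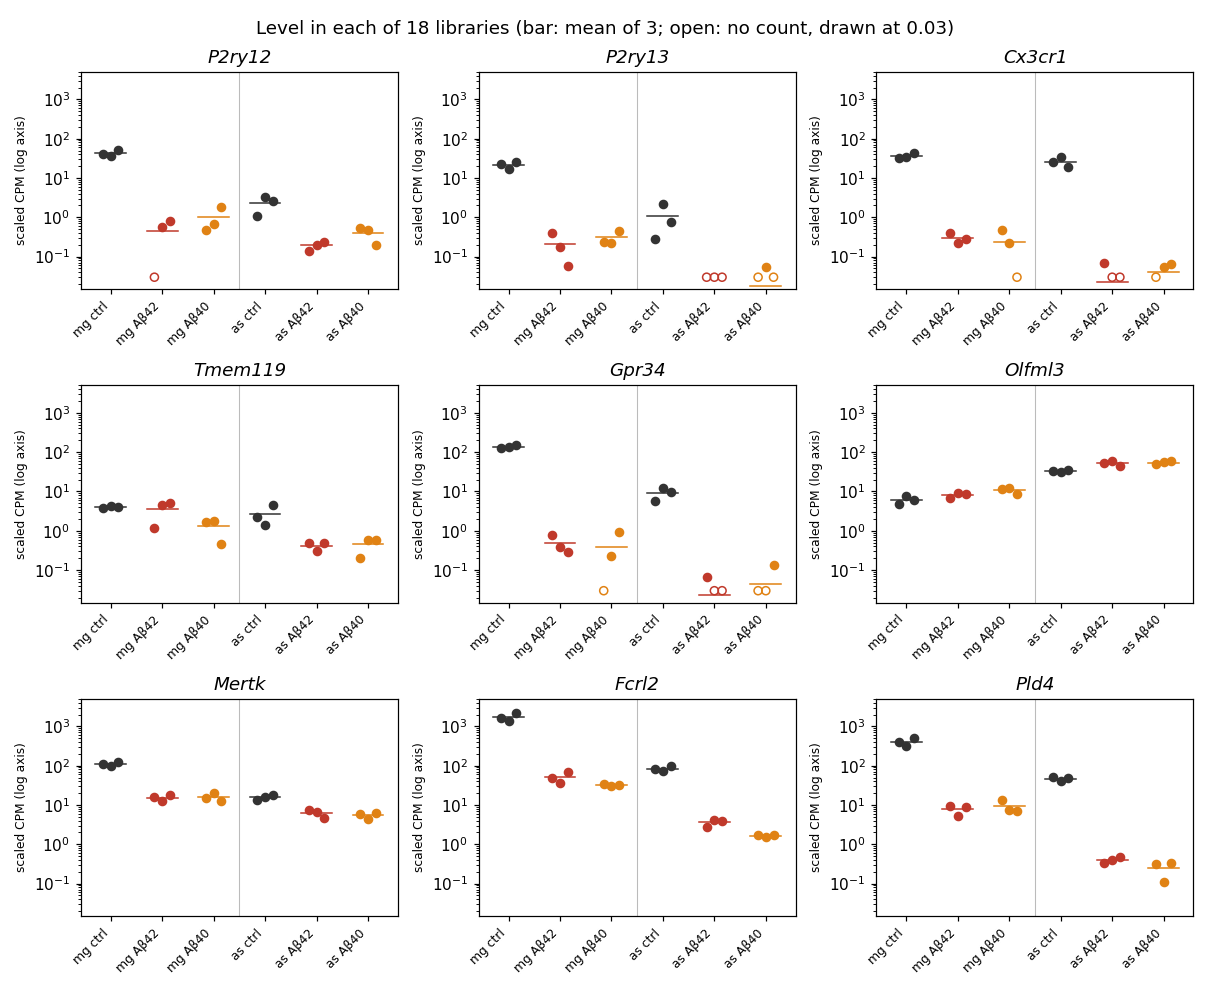
Level of each gene in the 18 libraries, in CPM scaled within each cell type, on a log axis. Groups are microglia (mg) and astrocytes (as), untreated (ctrl) or with Aβ42 or Aβ40 fibrils. Points are libraries, bars are means of 3 libraries, and open points are libraries with no count, drawn at 0.03. Gpr34 stood at 131 to 148 CPM in control microglia and under 1 CPM in every fibril-treated library.

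The ADP receptors were among the genes with the deepest falls. P2ry12 stood at 41.3, 36.7 and 51.9 CPM in control microglia, at 0.00, 0.563 and 0.798 CPM with Aβ42 fibrils, and at 0.483, 0.671 and 1.84 CPM with Aβ40 fibrils. No fibril-treated library reached the lowest control library. P2ry12 fell by 6.09 ± 0.29 (SE) on the log2 scale with Aβ42 fibrils (edgeR adjusted p = 7.39e-09) and by 5.67 ± 0.36 with Aβ40 fibrils (adjusted p = 1.01e-07). P2ry13 had 194, 89 and 169 counts in control microglia, 1, 4 and 1 with Aβ42 fibrils, and 1 in each Aβ40 library. The control libraries were thus well above the floor, and the Aβ40 libraries were all under it. Pooled over libraries, P2ry13 was 161-fold lower with Aβ42 fibrils (95% exact interval 73.2 to 440) and 80.4-fold lower with Aβ40 fibrils (27.3 to 391). In edgeR's fit its log2 fold changes were -7.16 and -6.23 (adjusted p = 5.63e-09 and 1.4e-07).

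Cx3cr1 and Gpr34, the receptors for fractalkine and lysophosphatidylserine, fell to a few counts per library. Cx3cr1 had 268, 182 and 286 counts in control microglia, 1, 5 and 5 with Aβ42 fibrils, and 2, 1 and 0 with Aβ40 fibrils. In CPM the controls stood at 31.6, 35.2 and 43.6, and the highest treated library at 0.483. The pooled level was 143-fold lower with Aβ42 fibrils (79.3 to 287) and 131-fold lower with Aβ40 fibrils (44.6 to 636), and the fitted log2 fold changes were -7.08 and -6.97 (adjusted p = 1.74e-09 and 1.77e-08). Gpr34 had 1114, 710 and 972 counts in control microglia, 2, 9 and 5 with Aβ42 fibrils, and 0, 1 and 2 with Aβ40 fibrils. All treated libraries were therefore under 1 CPM, against 131 CPM in the lowest control. Its fitted log2 fold change was the lowest of the 10837 genes with Aβ42 fibrils, at -8.48 (adjusted p = 4.69e-10), and ranked 2 from the bottom with Aβ40 fibrils, at -8.88 (adjusted p = 1.3e-09). The pooled count ratio, which rests on 16 and 3 counts in the treated groups, was 373-fold lower with Aβ42 fibrils (95% exact interval 229 to 653) and 497-fold lower with Aβ40 fibrils (170 to 2410).

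Mertk, the clearance receptor, fell less deeply and stayed well above the floor. It stood at 111, 96.0 and 126 CPM in control microglia, at 15.6, 12.9 and 17.8 CPM with Aβ42 fibrils, and at 15, 19.7 and 12.4 CPM with Aβ40 fibrils. The fibril groups overlapped each other and neither reached the controls. The log2 fold changes were -2.85 ± 0.18 (SE, adjusted p = 6.21e-08) and -2.78 ± 0.19 (adjusted p = 1.75e-07).

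Fcrl2 and Pld4 were abundant in control microglia and lost most of their signal, while keeping enough counts to be measured in every library. Fcrl2 stood at 1640, 1370 and 2150 CPM in control microglia, at 48.0, 37.3 and 68.7 CPM with Aβ42 fibrils, and at 33.8, 30.2 and 31.7 CPM with Aβ40 fibrils. The fitted log2 fold changes were -5.06 ± 0.24 (SE, adjusted p = 7.12e-09) and -5.75 ± 0.26 (adjusted p = 5.4e-09). Each Aβ42 library was above each Aβ40 library, but the difference of 0.69 ± 0.23 on the log2 scale had an adjusted p-value of 0.0541. Pld4 stood at 401, 313 and 502 CPM in control microglia, at 9.20, 5.15 and 8.95 CPM with Aβ42 fibrils, and at 13.5, 7.38 and 6.89 CPM with Aβ40 fibrils. The treated groups overlapped each other and lay far under the controls. Pld4 fell by 5.79 ± 0.29 on the log2 scale with Aβ42 fibrils (adjusted p = 9.26e-09) and by 5.41 ± 0.29 with Aβ40 fibrils (adjusted p = 2.66e-08).

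Tmem119 and Olfml3 did not follow the other genes. Tmem119 stood at 3.89, 4.25 and 4.12 CPM in control microglia, at 1.20, 4.55 and 5.13 CPM with Aβ42 fibrils, and at 1.69, 1.79 and 0.46 CPM with Aβ40 fibrils. The Aβ42 libraries lay on both sides of the controls, with a log2 fold change of 0.11 ± 0.30 (SE, adjusted p = 0.776), and the lowest of them rests on 3 counts. With Aβ40 fibrils it fell by 1.46 ± 0.46 on the log2 scale (adjusted p = 0.0235), and this call was lost when any 1 of the 6 libraries was left out (adjusted p = 0.0508 to 0.0675). The Aβ40 libraries had 7, 8 and 1 counts of Tmem119, on which the comparison between the fibrils rests as well. Tmem119 was the 1 gene of the 9 called between the fibrils, and was higher with Aβ42 than with Aβ40 fibrils by 1.57 ± 0.43 (adjusted p = 0.0321). That call held without Aβ42 replicate 1 and was lost in each of the other 5 fits that left out a library (adjusted p up to 0.142). Of all genes tested, 11.3% were higher and 9.01% lower with Aβ42 than with Aβ40 fibrils.

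Olfml3 stood at 4.71, 7.53 and 6.10 CPM in control microglia, at 6.80, 9.35 and 8.78 CPM with Aβ42 fibrils, and at 11.3, 12.1 and 8.73 CPM with Aβ40 fibrils. The Aβ42 libraries overlapped the controls, whereas the Aβ40 libraries did not. It was higher by 0.54 ± 0.20 (SE) on the log2 scale with Aβ42 fibrils (adjusted p = 0.0391) and by 0.88 ± 0.22 with Aβ40 fibrils (adjusted p = 0.00781). The Aβ42 call was lost in 4 of the 6 fits that left out a library, those without control replicate 1 or 3 or Aβ42 replicate 2 or 3, with adjusted p-values up to 0.19.

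**Figure D2:**
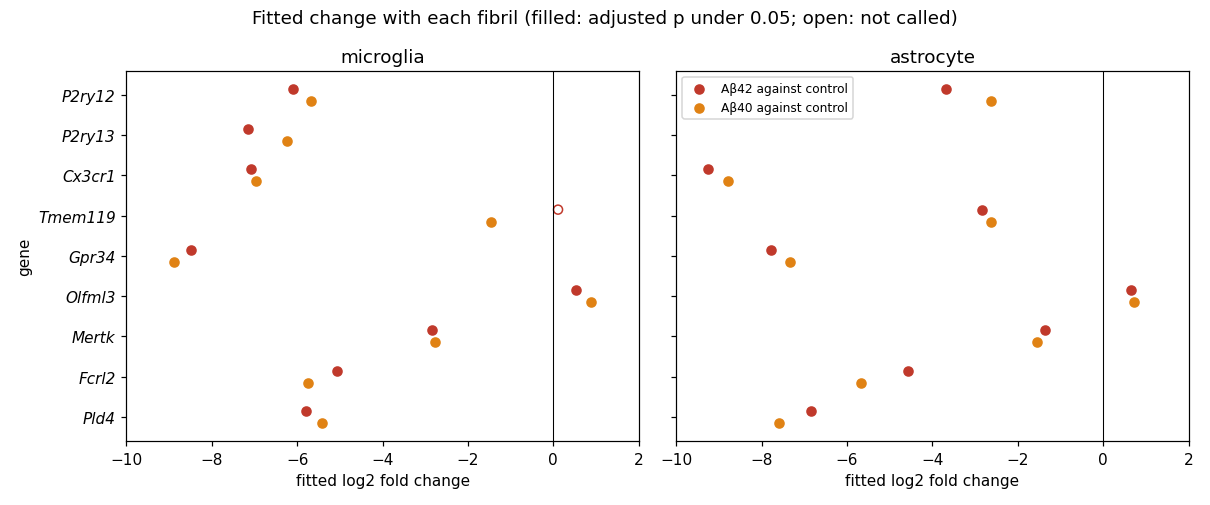
Fitted log2 fold change of each gene against the control libraries of its own cell type, with Aβ42 and Aβ40 fibrils. Filled points have an adjusted p-value under 0.05 and the open point does not. P2ry13 was under the filter in astrocytes and has no point there. Olfml3 is the 1 gene to the right of 0 in all 4 comparisons.

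The host genes of the receptors did not show falls of this size. Cask, the host of Gpr34, had a log2 fold change of -0.44 ± 0.13 (SE, adjusted p = 0.0117) with Aβ42 fibrils and of -0.35 ± 0.13 (adjusted p = 0.0551) with Aβ40 fibrils in microglia. Med12l, the host of both ADP receptors, had too few counts to be tested in microglia and stood at 0.57 to 2.41 CPM over the 9 libraries, with overlapping groups.

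The pan-microglia markers, genes of all microglia and many other macrophages, fell less deeply in the microglia cultures. Of the 15, 9 were lower and 1 higher with Aβ42 fibrils, and 12 were lower and 1 higher with Aβ40 fibrils, with a median log2 fold change of -1.03 in both. The list ranged from C1qa, a chain of complement C1q, at -3.97 and -4.23, to Itgam, the integrin CD11b, at 0.90 and 1.04. Csf1r, the receptor for the growth factors Csf1 and Il34, had the smallest p-value, with log2 fold changes of -3.87 and -3.90. Their summed level went from 13400 to 15500 CPM in control microglia to 4840 to 7500 CPM with Aβ42 fibrils and 6140 to 7180 CPM with Aβ40 fibrils. Per 1000 CPM of these markers, Gpr34 averaged 9.82 ± 0.396 (SD, n = 3) in controls, 0.0794 ± 0.0278 with Aβ42 fibrils and 0.0548 ± 0.066 with Aβ40 fibrils. On that same scale Fcrl2 averaged 120.0 ± 17.9, 8.81 ± 3.11 and 4.92 ± 0.497. Mertk averaged 7.82 ± 0.541, 2.65 ± 0.56 and 2.44 ± 0.738. On this scale 7 genes (these 3 with P2ry12, P2ry13, Cx3cr1 and Pld4) had every treated microglia library under every control library. The share of all genes that did so was not computed. Olfml3 went the other way, from 0.434 ± 0.115 to 1.47 ± 0.521 and 1.67 ± 0.396, with no overlap with the controls. Tmem119 overlapped them, at 0.29 ± 0.0267, 0.673 ± 0.444 and 0.209 ± 0.126. The markers changed unevenly and their sum fell, which by itself raises a ratio to it. These ratios are therefore not levels per microglial cell, and are a description, with no test.

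Other genes reported for homeostatic microglia changed in both directions. Of 30 listed, 27 were in the tables and 24 were tested in microglia. With Aβ42 fibrils 17 were lower and 5 higher (median log2 fold change -1.16), and with Aβ40 fibrils 15 were lower and 5 higher (median -1.31). The lowest was Slco2b1, an organic anion transporter, at -6.83 and -6.98. The highest was Rnase4, a secreted ribonuclease, at 2.40 and 2.57. Rnase4 had only 3 to 6 counts in a control microglia library, and in control astrocytes it stood at 49200% of the microglia level. Jam2, Nav2, Adgrg1 and Bin1, whose means were also above control with both fibrils, stood at 1020%, 765%, 547% and 111% there. Hpgds, whose mean rose too, stood at 2.24%. Between the control cultures, 7 of the 24 genes tested were lower in microglia than in astrocytes and 15 were higher. Csf1r again had the smallest p-value among those that were lower, and Rnase4 and Hpgds, a prostaglandin D synthase, had the smallest among those that were higher with Aβ42 and with Aβ40 fibrils.

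Among 17 tested ligands and partners of the 9 genes, 10 were lower and 4 higher with each fibril in microglia. Cx3cl1, the ligand fractalkine of Cx3cr1, averaged 12.6 ± 1.91 CPM (SD, n = 3) in control microglia, 232 ± 31.5 CPM with Aβ42 fibrils and 240.0 ± 5.94 CPM with Aβ40 fibrils. The fitted log2 fold changes were 4.21 ± 0.15 (SE, adjusted p = 7.72e-10) and 4.26 ± 0.15 (adjusted p = 1.21e-09), in the direction opposite to its receptor. The ligands of Mertk were lower too, with log2 fold changes of -1.23 and -1.67 for Gas6 and of -2.37 and -2.11 for Pros1. Adora2a, an adenosine receptor, was the highest of the list at 7.36 and 6.85, and the ATP receptor P2rx7 the lowest at -3.88 and -3.13. The Adora2a values rest on 1 to 6 counts in a control library. Nt5e, which makes adenosine from AMP, and Ctss, a protease, had the smallest p-values among those that were lower with Aβ42 (Nt5e, -3.06) and with Aβ40 fibrils (Ctss, -2.26).

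Of 9 tested transcription factors of microglia, 5 were lower and 1 higher with Aβ42 fibrils, and 4 were lower and 1 higher with Aβ40 fibrils. Irf8 was the lowest, at -4.26 ± 0.20 (SE, adjusted p = 6.44e-09) and -3.71 ± 0.21 (adjusted p = 3.47e-08), and Smad3, which carries the TGF-β signal, the highest at 1.06 and 0.55. Sall1, a factor specific to microglia among macrophages, was at -0.69 with Aβ42 fibrils, where it was called, and at -0.20 with Aβ40 fibrils, where it was not. In control astrocytes Sall1 stood at 364% of the microglia level, with a log2 fold change of microglia against astrocytes of -1.86. In these cultures it therefore did not mark microglia over astrocytes. Of 5 tested markers of other macrophages, 3 were higher with each fibril, and 2 were lower with Aβ42 and 1 with Aβ40 fibrils. The mannose receptor Mrc1 was the lowest at -3.90 and -3.56 and F13a1, a coagulation factor subunit, the highest at 4.52 and 2.65. The F13a1 values rest on 0 to 2 counts in a control library and 1 to 6 in an Aβ40 library. Pf4, a chemokine, had the smallest p-value among those that were higher, at 1.66 and 1.18.

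**Figure D3:**
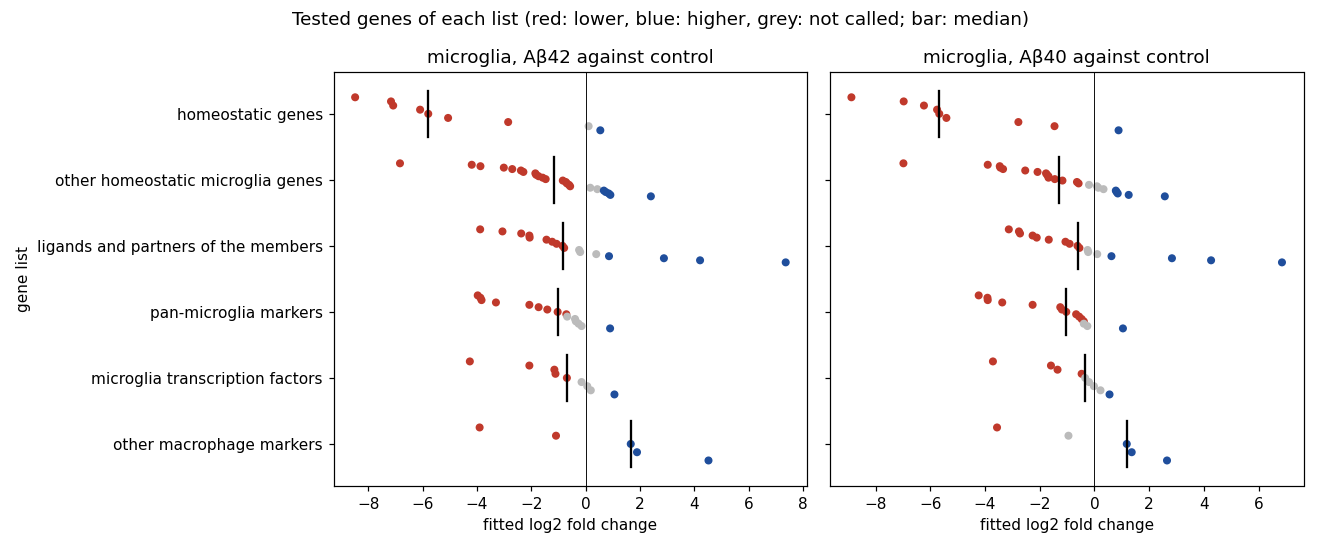
Fitted log2 fold changes in microglia of the tested genes of 6 lists, with Aβ42 fibrils on the left and Aβ40 fibrils on the right. Points are genes (red lower, blue higher, grey not called) and bars are medians. The median of the 9 homeostatic genes lies at -5.79 and -5.67, against -1.03 for the pan-microglia markers in both panels.

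The genes whose pattern lay nearest to that of P2ry12 were Igf1, C1qtnf3, Klhl6, Tlr5 and Tifab. Nearness was the distance over 3 log2 fold changes (each fibril against control in microglia, and control microglia against control astrocytes) among 10255 genes. The distances were 0.52, 0.62, 0.63, 1.06 and 1.30. For Igf1, a growth factor, the 3 values were -6.35, -5.60 and 4.81, and for P2ry12 they were -6.09, -5.67 and 4.36. By the same measure Fcrl2, Pld4 and P2ry13 ranked 4, 6 and 7, whereas Cx3cr1, Gpr34 and Mertk ranked 113, 117 and 152, and Tmem119 and Olfml3 ranked 1651 and 9468.

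Control microglia were then compared with control astrocytes in 1 model of the 18 libraries, which tested 11581 genes. Of the 9 genes, 7 were higher in microglia and 1, Olfml3, was lower, and Tmem119 was not called. Of all genes tested, 34.2% were higher and 34.5% lower in microglia. Scaling by library totals moved the median of all genes by -0.28 on the log2 scale, and the share of calls that were higher in microglia from 49.8% to 37.4%. The cell types also differ in the gene symbols of their tables, so that cell type and the making of the tables cannot be told apart.

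The rule that names these genes takes them as a sign of microglia in astrocyte cultures, but their levels there differed from gene to gene. On the scale of that fit, P2ry12 averaged 2.22 ± 1.07 CPM (SD, n = 3) in control astrocytes and 48.1 ± 8.37 CPM in control microglia, or 4.62% of the microglia level. P2ry13, Gpr34, Fcrl2 and Pld4 stood at 4.10%, 5.54%, 4.12% and 9.73%, and Mertk at 12%. The pan-microglia markers ran from 1.46% for Ptprc, the leukocyte antigen CD45, to 15.4% for C1qb, with a median of 4.58% and 13 of 15 under 10%. These 6 genes therefore lay within the range of the pan-microglia markers.

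Cx3cr1, Tmem119 and Olfml3 lay above that range. Cx3cr1 stood at 23.6, 32.1 and 17.4 CPM in control astrocytes against 35.1, 39.3 and 48.2 CPM in control microglia, or 59.6% of the microglia level (42.5% to 78.6% over the libraries). The groups did not overlap, and microglia were higher by 0.78 ± 0.21 (SE) on the log2 scale (adjusted p = 0.00264). Tmem119 stood at 2.09, 1.35 and 4.10 CPM against 4.32, 4.75 and 4.55 CPM, or 55.3% (29.7% to 90.3%), and was not called (0.62 ± 0.37, adjusted p = 0.15). Without astrocyte control replicate 3 the difference was 1.41 (adjusted p = 0.0135). Olfml3 stood at 31.7, 30.1 and 31.6 CPM in control astrocytes against 5.24, 8.42 and 6.75 CPM in control microglia, or 458%. The log2 fold change of microglia against astrocytes was -2.22 ± 0.18 (SE, adjusted p = 1.97e-09), so in these cultures Olfml3 did not mark microglia over astrocytes. What other cells contributed to these values was not tested.

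**Figure D4:**
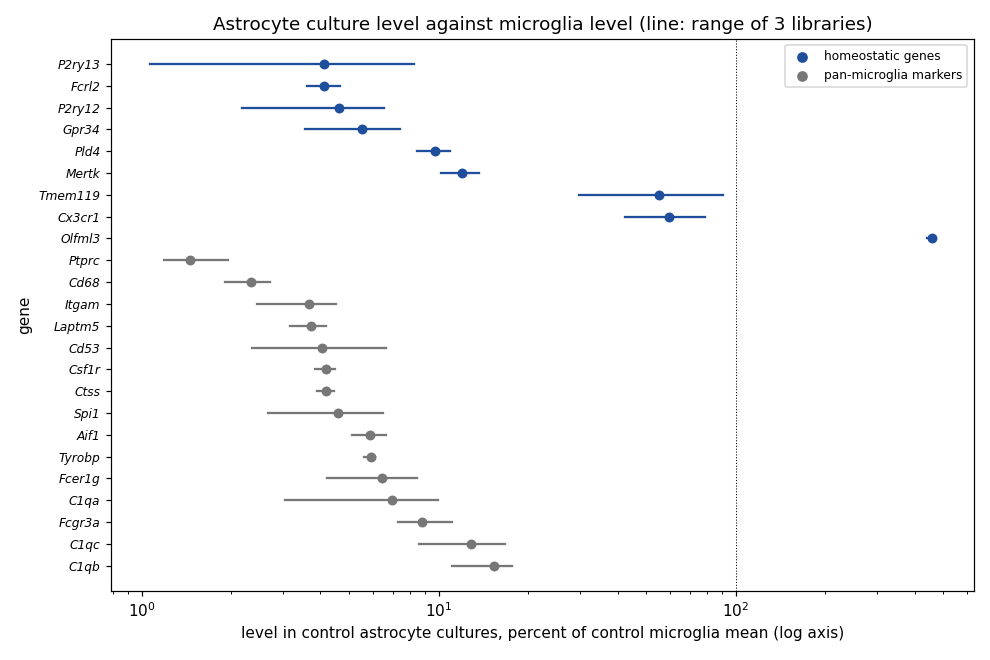
Level in control astrocyte cultures as a percent of the mean level in control microglia, on a log axis, for the 9 homeostatic genes (blue) and 15 pan-microglia markers (grey). Points are means and lines run from the lowest to the highest of 3 astrocyte libraries. Tmem119 at 55.3%, Cx3cr1 at 59.6% and Olfml3 at 458% lie above the markers, which end at 15.4%.

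In astrocyte cultures 8 of the 9 genes passed the filter on low counts, and of these 7 were lower and Olfml3 was higher with each fibril. Of all 11690 genes tested, 20.4% were lower and 16.5% higher with Aβ42 fibrils, and 18.4% were lower and 14.9% higher with Aβ40 fibrils. The median log2 fold change of the 8 genes was -4.13 and -4.15, and that of all genes was 0.00. The pan-microglia markers moved with them: 13 of 15 were lower with Aβ42 and 15 of 15 with Aβ40 fibrils, with medians of -3.09 and -3.33. Their summed level was 745 to 847 CPM in control astrocytes, 118 to 149 CPM with Aβ42 fibrils and 85.8 to 96.5 CPM with Aβ40 fibrils, with all 15 markers detected in each group. The list ran from C1qa (-7.10 and -7.61) to Ctss (-0.20 and -0.68). These markers fell unevenly, so the make-up of their sum changed. Cd68 averaged 66.2, 45.8 and 23.8 CPM in control, Aβ42 and Aβ40 astrocytes, and Ctss 37.9, 32.9 and 23.6 CPM. Ratios to this sum are therefore not levels per microglial cell. Per 1000 CPM of these markers, Cx3cr1, Gpr34, Fcrl2 and Pld4 had every treated astrocyte library under every control. Mertk had them above, from 20.4 ± 4.4 (SD, n = 3) to 45.5 ± 5.77 and 62.2 ± 13.5, and so did Olfml3, from 42.6 ± 3.07 to 394 ± 43.6 and 609 ± 62.5. P2ry12 overlapped the controls, at 3.11 ± 1.6, 1.49 ± 0.561 and 4.44 ± 1.94, as did Tmem119, and P2ry13 with Aβ40 fibrils. The share of all genes that lay under or above every control on this scale was not computed. Other markers moved too. The astrocyte markers summed to 5500 to 5770 CPM with Aβ42 and 6090 to 6420 CPM with Aβ40 fibrils, the oligodendrocyte lineage markers to 1270 to 1370 and 1350 to 1370 CPM, and the fibroblast markers to 63.7 to 85.3 and 105 to 123 CPM against 168 to 189 CPM in controls. None of these markers was at 0 in any group, and their part in the results was not tested. A loss of microglia from the treated astrocyte cultures and lower levels in the cells present cannot be told apart.

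Cx3cr1 had the lowest fitted fold change of all genes tested in astrocyte cultures with either fibril. It had 90, 143 and 267 counts in control astrocytes, 1, 0 and 0 with Aβ42 fibrils, and 0, 1 and 1 with Aβ40 fibrils. In CPM the controls stood at 25, 34.2 and 18.8, and every treated library lay under the floor. The pooled level was 746-fold lower with Aβ42 fibrils (95% exact interval 133 to 29500, on 1 count) and 493-fold lower with Aβ40 fibrils (136 to 4080, on 2 counts). The fitted log2 fold changes were -9.26 and -8.80 (adjusted p = 1.72e-07 and 1.35e-07). Its ligand Cx3cl1 averaged 38.9 ± 9.48 CPM (SD, n = 3) in control astrocytes, 440.0 ± 33.0 CPM with Aβ42 fibrils and 395 ± 16.9 CPM with Aβ40 fibrils. Among the ligands and partners, Cx3cl1 had the highest log2 fold change in astrocyte cultures, at 3.50 ± 0.17 (SE, adjusted p = 8.83e-08) and 3.35 ± 0.17 (adjusted p = 1.35e-07).

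Gpr34, P2ry13 and P2ry12 were near or under the floor in treated astrocytes. Gpr34 had 21, 51 and 134 counts in control astrocytes, 1, 0 and 0 with Aβ42 fibrils, and 0, 0 and 2 with Aβ40 fibrils. The pooled level was 307-fold lower (54.5 to 12200, on 1 count) and 203-fold lower (55.5 to 1690, on 2 counts). The fitted log2 fold changes were -7.79 and -7.33 (adjusted p = 3.7e-06 and 2.78e-06). P2ry13, which was not tested, had 1, 9 and 11 counts in control astrocytes and 0 in each Aβ42 library, and was at least 10.4-fold lower against a floor of 3 counts over the group, or 7.76-fold by the lower limit of the exact 95% interval. With Aβ40 fibrils it had 0, 1 and 0 counts, a pooled level 41.4-fold lower (6.66 to 1710, on 1 count). P2ry12 stood at 1.11, 3.35 and 2.67 CPM in control astrocytes, at 0.137, 0.202 and 0.240 CPM with Aβ42 fibrils, and at 0.520, 0.481 and 0.199 CPM with Aβ40 fibrils. The groups did not overlap the controls, although the lowest control rests on 4 counts. Its log2 fold changes were -3.68 ± 0.52 (SE, adjusted p = 0.000211) and -2.63 ± 0.42 (adjusted p = 0.000636).

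Fcrl2 and Pld4 were the genes of the 9 with the smallest p-values in astrocyte cultures. Fcrl2 stood at 82.9, 73.5 and 96.3 CPM in control astrocytes, at 2.81, 4.04 and 3.96 CPM with Aβ42 fibrils, and at 1.77, 1.5 and 1.73 CPM with Aβ40 fibrils. The fitted log2 fold changes were -4.57 ± 0.19 (SE, adjusted p = 2.71e-08) and -5.67 ± 0.20 (adjusted p = 1.09e-08). Pld4 stood at 52.3, 40.7 and 47.6 CPM in control astrocytes, at 0.343, 0.404 and 0.480 CPM with Aβ42 fibrils, and at 0.312, 0.107 and 0.332 CPM with Aβ40 fibrils. No treated library came near the controls, and Pld4 fell by 6.84 ± 0.27 and 7.59 ± 0.28 on the log2 scale (adjusted p = 1.65e-08 and 1.09e-08).

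Mertk and Tmem119 were lower and Olfml3 was higher in treated astrocyte cultures. Mertk stood at 13.4, 15.8 and 18.3 CPM in control astrocytes, at 7.28, 6.57 and 4.56 CPM with Aβ42 fibrils, and at 5.92, 4.49 and 6.18 CPM with Aβ40 fibrils. It fell by 1.37 ± 0.22 (SE, adjusted p = 0.000505) and by 1.55 ± 0.22 (adjusted p = 0.000226) on the log2 scale. Tmem119 stood at 2.23, 1.44 and 4.43 CPM in control astrocytes, and every treated library was under 0.6 CPM. It fell by 2.85 ± 0.49 (SE, adjusted p = 0.000834) and by 2.62 ± 0.44 (adjusted p = 0.000918). Olfml3 stood at 33.7, 32.1 and 34.2 CPM in control astrocytes, at 52.7, 59.2 and 45.8 CPM with Aβ42 fibrils, and at 49.1, 55.4 and 59.3 CPM with Aβ40 fibrils. All 6 treated libraries were above the 3 controls, and Olfml3 was higher by 0.66 ± 0.14 (SE, adjusted p = 0.00363) and 0.71 ± 0.14 (adjusted p = 0.00246).

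Between the fibrils, edgeR called 0 of the 8 genes in astrocyte cultures (1, Fcrl2, at an unadjusted p-value under 0.05), where 0.0599% of all genes were higher and 0.0257% lower with Aβ42 than with Aβ40 fibrils. The nearest was Fcrl2, higher with Aβ42 fibrils by 1.10 ± 0.22 (SE) on the log2 scale in edgeR, with an adjusted p-value of 0.112 and no overlap of the libraries. It was called by DESeq2 (adjusted p = 0.0115) and in a fit of these 2 groups alone (adjusted p = 0.0421).

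The response to the fibrils was compared between the cell types as an interaction in the fit of 18 libraries. With Aβ42 fibrils 3 of the 9 genes differed and with Aβ40 fibrils 3 of 9, where 37.3% and 32.5% of all genes tested differed, so the counts are near the background. P2ry12 fell further in microglia than in astrocyte cultures, with a difference in log2 fold change of -2.43 ± 0.90 (SE, adjusted p = 0.0418) with Aβ42 and of -3.05 ± 0.71 (adjusted p = 0.00264) with Aβ40 fibrils. The Aβ42 value was not called in 8 of 12 fits that left out a library (adjusted p up to 0.123). Mertk also fell further in microglia, with differences of -1.48 ± 0.28 (adjusted p = 0.000436) and -1.25 ± 0.29 (adjusted p = 0.00262). Tmem119 differed with Aβ42 fibrils, by 2.94 ± 0.61 (adjusted p = 0.000807), its value being near 0 in microglia and negative in astrocyte cultures. Pld4 fell further in astrocyte cultures with Aβ40 fibrils, by 2.15 ± 0.54 (adjusted p = 0.00439). The P2ry12, Tmem119 and Pld4 values rest on few counts in treated libraries. P2ry12 had 2 in each Aβ42 astrocyte library and 2, 3 and 4 in the Aβ40 microglia libraries, and Pld4 had 3, 2 and 5 in the Aβ40 astrocyte libraries. Tmem119 had 7, 3 and 4 in the Aβ42 astrocyte libraries, 8, 6 and 63 in the control astrocyte libraries, and 3 in Aβ42 microglia replicate 1. For the remaining genes a difference was not called, and Gpr34, P2ry13 and Cx3cr1 also had few counts in treated libraries.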

How the data were processed

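Libraries were prepared with the TruSeq Stranded mRNA kit. The authors aligned reads to the rat genome (UCSC rn5) with STAR, quantified with Salmon and produced gene counts with DESeq2 (versions not given in the sources used here). They deposited 1 table of read counts per gene for each of 18 libraries, as whole numbers that are not normalized. Reads on no gene or on more than 1 gene, 21.7% to 24.5% of counts in microglia and 26.0% to 34.2% in astrocytes, were left out. The counts were analysed with edgeR 4.0.16 and limma 3.58.1 in R 4.3.3 (TMM, filterByExpr, glmQLFit, glmQLFTest, Benjamini-Hochberg adjustment over all genes tested). The 9 libraries of a cell type were fitted together without covariates, and all 18 for comparisons between cell types, on the 16704 symbols that both kinds of table list. A gene was called at an adjusted p-value under 0.05. For P2ry13, Cx3cr1 and Gpr34, which fell to few counts, ratios of pooled counts are given with exact 95% binomial intervals. Other groups with few counts have no such interval here. The fit was tested on simulated data. Alternatives were DESeq2 1.42.0 (its size factors, and its Wald test), library totals, no scaling, no filter, 10 counts in every library, a fit of the 2 groups compared, a block for replicate number, and the omission of each library in turn. The 9 genes, the other lists and the rule for named genes (every one of the 9, their host genes, the extremes and smallest p-values of each other list in microglia, and the 5 genes nearest to P2ry12) were chosen with earlier results of these data known. Sall1, Gas6 and Pros1 were named in addition, after their values were seen. Promoters were matched by symbol. The GGAA core was searched after the longer form had been found in none of the windows.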

Additional observations from a re-analysis of the deposited data

Results flagged for a closer look

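Among the 9 genes, 6 responses to the fibrils differed between microglia and astrocyte cultures in edgeR's test of the interaction, 3 of 9 with each fibril. Of all genes tested, 37.3% differed with Aβ42 and 32.5% with Aβ40 fibrils, a share near that of the 9 genes. The values are given as microglia minus astrocyte log2 fold change. With Aβ42 fibrils they were Tmem119 (2.94), P2ry12 (-2.43) and Mertk (-1.48), and with Aβ40 fibrils P2ry12 (-3.05), Mertk (-1.25) and Pld4 (2.15). For Tmem119, Mertk, Pld4 and the Aβ40 response of P2ry12 the call held in each of the 12 fits that left out a library. The P2ry12 values rest on 2 counts in each Aβ42 astrocyte library and on 2, 3 and 4 in the Aβ40 microglia libraries, and that of Pld4 on 3, 2 and 5 in the Aβ40 astrocyte libraries. That of Tmem119 rests on 7, 3 and 4 counts in the Aβ42 astrocyte libraries and 8, 6 and 63 in the control astrocyte libraries. The median summed level of the pan-microglia markers was 13600, 5580 and 6240 CPM in control, Aβ42 and Aβ40 microglia and 759, 135 and 87.1 CPM in the astrocyte groups, and their part in these differences was not tested.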

How the results depend on the processing

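Of 118 counts of called genes recomputed under another scaling, filter, test or fit, 94 stayed within 1.5 times the value reported, as did 98 of 108 counts with 1 library left out. Among the fold changes of single genes, P2ry12, P2ry13, Cx3cr1, Gpr34, Fcrl2 and Pld4 were lower with both fibrils in microglia under each setting that could give a value. In microglia with Aβ42 fibrils, the 1 gene called higher, Olfml3, became 0 under library totals, no scaling, the DESeq2 Wald test, the replicate block and the fit of the 2 groups alone, and 0 to 1 with a library left out. Between the fibrils in microglia, the 1 gene called higher became 2 under library totals, no scaling, the DESeq2 Wald test and no filter, where Fcrl2 was called as well, and 0 under the filter of 10 counts in every library and the fit of the 2 groups alone. It was 0 to 2 with a library left out. Tmem119 with Aβ42 fibrils in microglia, not called at 0.11, was 0.00 by the DESeq2 Wald test, -0.02 with the replicate block, and -0.11 to 0.24 with a library left out. The filter of 10 counts in every library removes genes that fell to the floor, and left 3 lower in microglia with each fibril, 2 lower in astrocytes with each fibril, 2 higher in control microglia than in control astrocytes, and 1 response differing between cell types with each fibril. No scaling leaves the depth ratios in the values and moves the median of all genes by -0.91 to 2.00 on the log2 scale within microglia. Under it, 0 genes were called higher in microglia with Aβ40 fibrils, 4 were lower in astrocytes with Aβ40 fibrils and 0 were higher in astrocytes with either fibril. Between the fibrils in astrocytes, 1 gene was called higher, Fcrl2, by the DESeq2 Wald test and by the fit of the 2 groups alone. Under library totals, Olfml3 in control astrocytes stood at 554% of the microglia level. Fold changes between the fibrils, and differences in response between cell types, were followed across settings only for the genes whose values are given above. Pairing by replicate number was not visible. The deviations of same-numbered libraries from their group means had correlations of -0.53 to 0.36 in astrocytes and -0.19 to 0.22 in microglia. For differently numbered libraries they were -0.46 to 0.53 and -0.21 to 0.23. This check cannot decide whether libraries with the same number shared a culture, which is not given. With the replicate block, 7 genes were lower with Aβ42 and 8 with Aβ40 fibrils in microglia. It also ended the call of Tmem119 between the fibrils (adjusted p = 0.0682) and called Fcrl2 there (adjusted p = 0.0451). Depth limits the fibril-treated values of P2ry13, Cx3cr1 and Gpr34, which rest on at most 9 counts in a library. For these, no difference between the fibrils was called where it was tested. In microglia the pooled ratio of Aβ42 to Aβ40 had a 95% exact interval of 0.107 to 3.09 for P2ry13. It was 0.242 to 5.12 for Cx3cr1 and 0.382 to 7.15 for Gpr34. Differences within these limits were not resolved. The cause of the other changes was not tested.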
